A study of Mus musculus with 18 samples.

Results

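The 31 genes described here encode enzymes, subunits and carriers of pyruvate oxidation, the TCA cycle and the adjoining glutamate and malate steps. They were taken by symbol from the 55536 genes of the deposited gene table, in which Pc carries its older symbol Pcx. All 31 were found, and all 31 passed the low-count filter in each comparison. RNA of mouse CD8+ T cells taken from lymph nodes and spleens was sequenced in 18 libraries. The mice were OT-I transgenics, in which the T cells carry a receptor for SIINFEKL, a peptide of ovalbumin. Tra2bKO cells gave 2 libraries and cells with a scrambled control gave 8, both at day 4 of stimulation with SIINFEKL and antibodies to OX40 and 4-1BB, while unstimulated naive cells at day 0 gave 8. All cells were OT-I, and the sources used here do not state how Tra2b was edited or in what share of the cells. Tra2b encodes a splicing regulator, and the title of the series names a poison exon of this gene in T cell receptor signalling. No label ties the libraries of a group to separate animals, so the p-values refer to the spread among libraries alone, and that spread may be technical.

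Pyruvate made by glycolysis enters the mitochondrion through a carrier and is either turned to acetyl-CoA by the pyruvate dehydrogenase complex or carboxylated to oxaloacetate. The TCA cycle joins acetyl-CoA to oxaloacetate as citrate and returns oxaloacetate through 2-oxoglutarate, succinate, fumarate and malate, passing electrons to the respiratory chain and giving up citrate, aspartate and other intermediates for synthesis. T cells that leave quiescence enlarge their mitochondria and feed both glucose carbon and glutamine carbon into the cycle, glutamine by way of glutamate and 2-oxoglutarate.

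Library totals ran from 68249844 to 93972513 counts, and levels are TMM-scaled CPM, which are not corrected for length. Tra2b itself stood at 361 and 370.5 CPM in the knockout libraries, 338 to 526 in controls and 248 to 352 in naive libraries, and knockout did not pass the test against control (log2 fold change -0.34, SE 0.13, adjusted p = 0.0899). Reads of an edited transcript count toward the gene, so this total is no check of the edit. The 8 CD8 T cell markers together summed to 4721 to 5467 CPM in the knockout libraries, 5032 to 6053 CPM in controls and 7566 to 9110 CPM in naive libraries, with every marker above 1 CPM. Markers of other cells moved with the groups. The 10 B cell markers summed to 670.4 to 834 CPM in the knockout libraries, 396 to 476 CPM in controls and 737 to 1199 CPM in naive libraries, mostly from Ighm, with Pax5 at or under 1 CPM in every library. The 7 NK cell markers summed to 8.60 to 10.7 CPM in the knockout libraries, 5.41 to 14.8 CPM in controls and 51.0 to 105 CPM in naive libraries. The 8 dendritic cell and macrophage markers summed to 81.1 to 94.7 CPM in the knockout libraries, 35.2 to 59.1 CPM in controls and 88.2 to 169 CPM in naive libraries. The 4 CD4 T cell markers stayed between 3.77 and 20.8 CPM and the 4 neutrophil markers at or under 5.40 CPM in all libraries, with 2 neutrophil markers at or under 1 CPM throughout. The 3 erythroid markers reached 78.5 CPM in knockout 1, against 7.99 CPM in knockout 2, 0.215 to 10.6 CPM in controls and 1.31 to 23.4 CPM in naive libraries. Mitochondrially encoded genes held 1.53% of counts in knockout 1, against 0.859% in knockout 2, 0.676 to 0.834% in controls and 0.898 to 1.17% in naive libraries. Across 10069 genes, which are not independent, the correlation of a library's deviation from the control mean with exon length was highest in knockout 2 (r = 0.392), against 0.111 in knockout 1 and -0.255 to 0.169 in single controls. The part of the marker and mitochondrial differences in the results was not tested. Calls lost when each library's trend with exon length and GC content was removed are named below. In bulk RNA, fewer cells of a type and less RNA per cell cannot be told apart.

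Summed over the 31 genes and corrected for transcript length, the pathway held 5052 ± 170 TPM in the knockout libraries, 4956 ± 101 TPM in controls and 3889 ± 101 TPM in naive libraries (SD, n = 2, 8 and 8). The naive sums, 3756 to 4101 TPM, lay below every control (4858 to 5127 TPM) and both knockout libraries (4932 and 5172 TPM), while 1 knockout value lay inside the control range and the other above it. Mdh2, the mitochondrial malate dehydrogenase, had the highest per-length mean of the 31 in each group, and Mdh1, its cytosolic counterpart, came next in each. Mdh2 stood at 743 and 721 TPM in the knockout libraries, 844 to 954 in controls (median 908) and 489 to 640.3 in naive libraries (median 558). At the low end were Pc and Pdk2. Pc had 3.2 and 3.54 TPM in the knockout libraries, 1.72 to 3.42 in controls (median 3.01) and 1.29 to 3.33 in naive libraries (median 2.04), so its groups overlapped throughout. Pdk2 had 0.376 and 0.306 TPM in the knockout libraries, 0.188 to 1.37 in controls (median 0.667) and 5.0 to 12.8 in naive libraries (median 9.45), with naive libraries above all others.

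**Figure D1:**
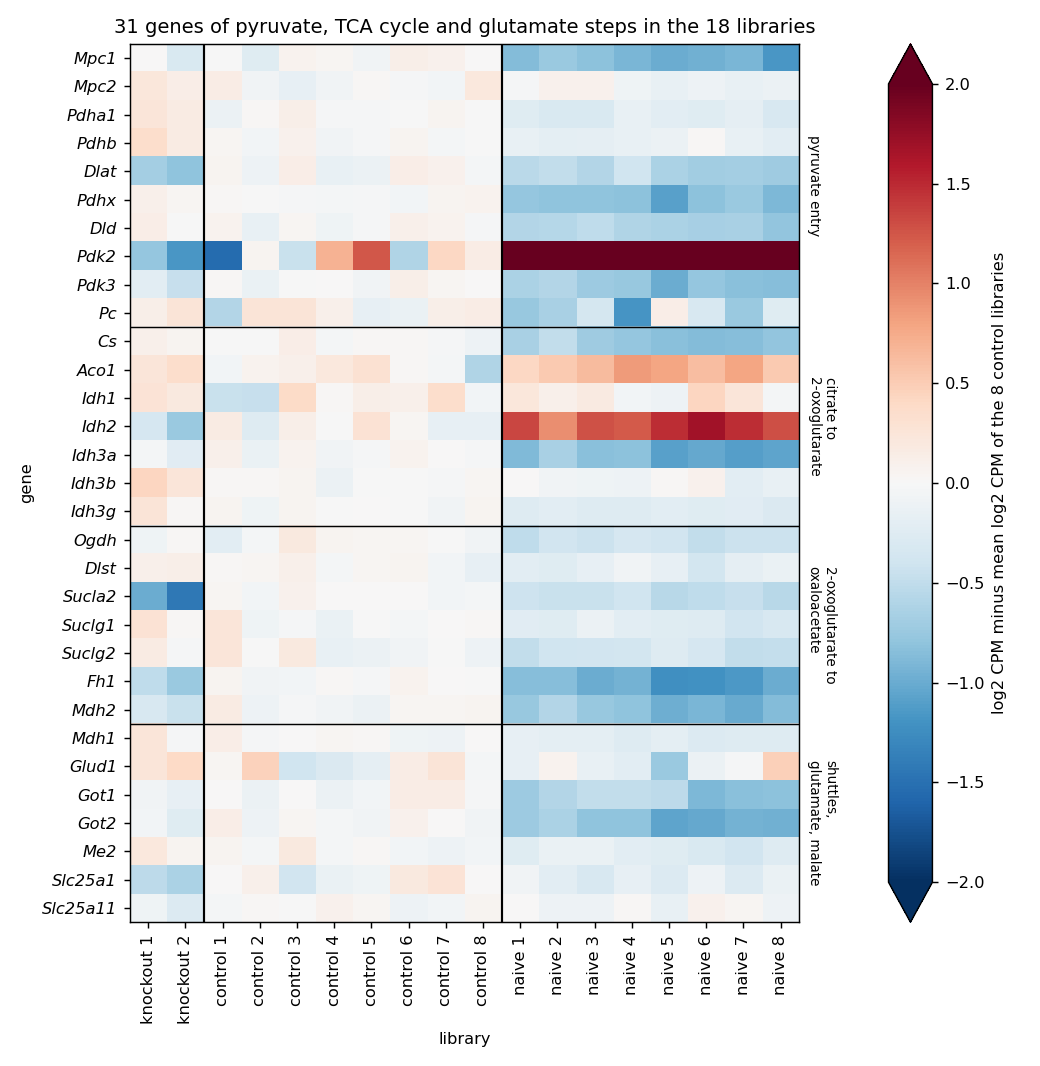
Level of each of the 31 genes (rows, grouped by step) in the 2 knockout, 8 control and 8 naive libraries (columns), as log2 CPM minus the mean log2 CPM of the 8 controls, with values beyond 2 in either direction at the end colours. Most rows are below the control mean in naive libraries, Pdk2, Idh2 and Aco1 are above it there, and Sucla2, Dlat and Fh1 are below it in both knockout libraries.

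At day 4 most of the 31 genes were higher in control cells than in naive cells. Of the 31, 23 rose and 3 fell (Pdk2, Idh2 and Aco1), while Mpc2, Idh1, Idh3b, Glud1 and Slc25a11 did not pass the test (edgeR's quasi-likelihood test, adjusted p under 0.05). Over all 17078 genes tested the same call fell on 71.5%, with 32.5% higher and 39.0% lower, so a call as such was common. The median log2 fold change was 0.25 over the 31 genes (0.16 when scaled by total counts alone), -0.08 over all genes tested (-0.18 with that scaling) and 0.10 over the 7766 genes whose mean log2 CPM was 4 or more. The control and naive libraries did not overlap for 21 of the 31, against 42.3% of all genes tested. By step, all 7 genes from 2-oxoglutarate to oxaloacetate rose, as did 8 of the 10 of pyruvate entry, 5 of the 7 of shuttles, glutamate and malate, and 3 of the 7 from citrate to 2-oxoglutarate.

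Tra2b knockout cells differed from control cells at fewer of these genes. In knockout cells 3 rose (Idh3b, Pdhb and Pdha1), 7 fell (Sucla2, Dlat, Fh1, Slc25a1, Idh2, Mdh2 and Pdk3) and 21 did not pass the test. Over all 18651 genes tested the call fell on 14.9%, with 7.62% higher and 7.24% lower. The median log2 fold change was 0.07 over the 31 (-0.03 after removal of each library's trend with exon length and GC content, so its sign turned), -0.01 over all genes tested and -0.02 over the 7436 whose mean log2 CPM was 4 or more. The knockout and control libraries did not overlap for 11 of the 31, against 23.8% of all genes tested. Without knockout 2 the count of falls was 3 (Sucla2, Dlat and Fh1) and 651 genes were called in all, and without knockout 1 the count of rises was 0. After removal of the trend with exon length and GC content, with all libraries kept, the only rise left was Idh3b. Sucla2, Dlat, Fh1, Mdh2 and Pdk3 were among the 6 falls, and the remaining fall was a gene not called in the main test. Idh2, Slc25a1, Pdhb and Pdha1 no longer passed (adjusted p = 0.0927, 0.107, 0.0745 and 0.242).

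Set against naive cells, the knockout cells had 22 of the 31 genes higher and 5 lower (Pdk2, Idh2, Sucla2, Slc25a1 and Aco1), and Dlat, Idh1, Glud1 and Slc25a11 did not pass. With the length and GC trend removed, Dlst, Me2, Mpc2 and Pc no longer passed edgeR's test (adjusted p = 0.0591, 0.107, 0.757 and 0.0562). Over all 19776 genes tested the call fell on 44.7%, with 21.1% higher and 23.6% lower, and the median log2 fold change was 0.43 over the 31, -0.08 over all genes and 0.11 over the 7873 whose mean log2 CPM was 4 or more. With total counts alone the median was 0.32 over the 31 and -0.19 over all genes. With the length and GC trend removed it was 0.34 over the 31 and -0.09 over all genes. The groups did not overlap for 26 of the 31, against 46.4% of all genes tested. The comparisons share libraries, so their calls are given side by side and are not independent. In 15 genes the call was higher in control than naive, none between knockout and control, and higher in knockout than naive. Fh1, Mdh2 and Pdk3 were lower in knockout than control and higher than naive in both stimulated groups. Sucla2 and Slc25a1 were higher in control than naive and lower in knockout than in either, and Dlat was called only in the comparisons that hold the controls.

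**Figure D2:**
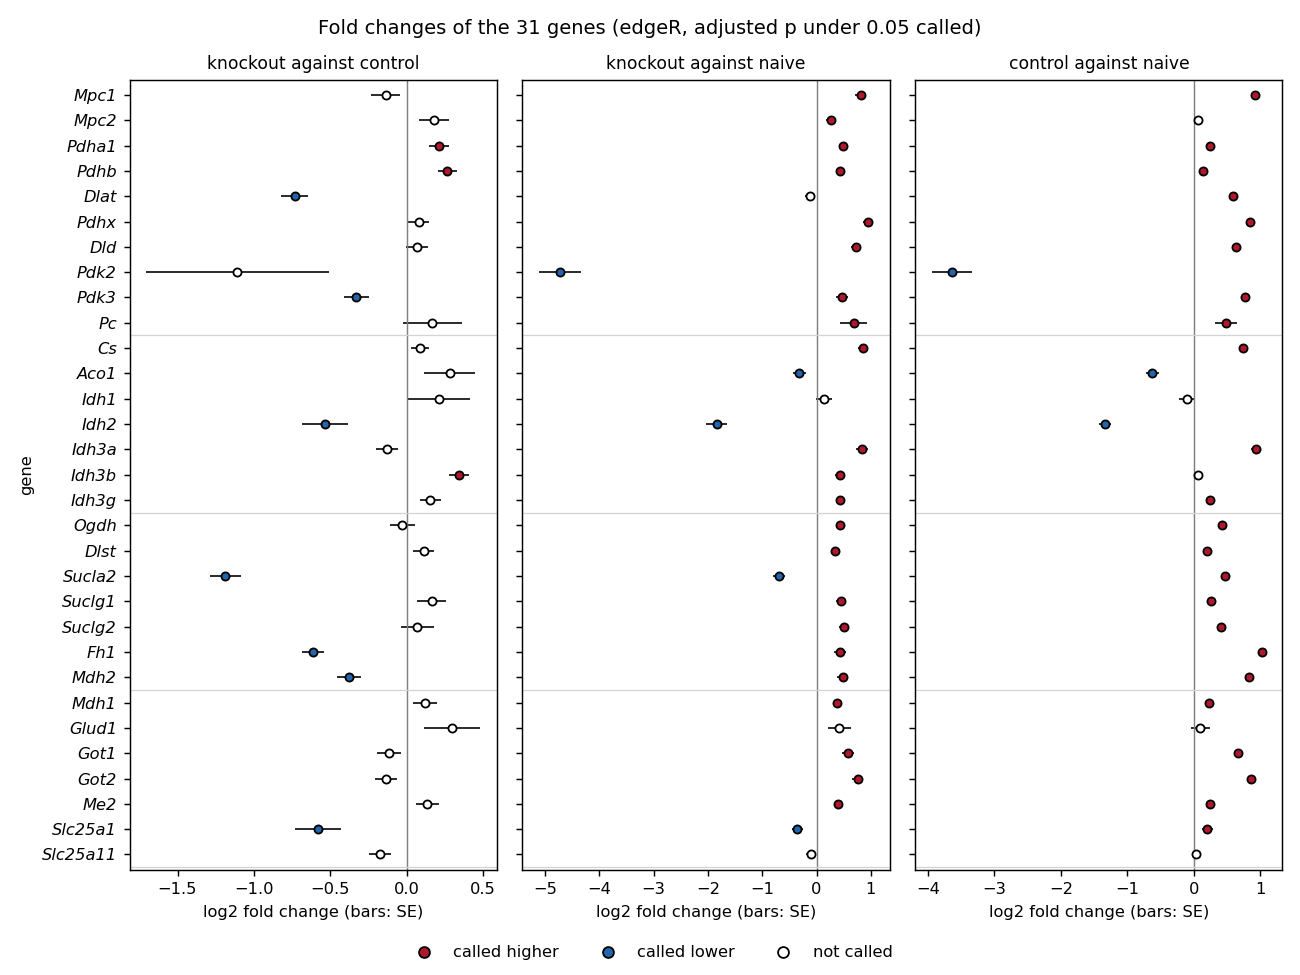
Log2 fold change (points) with its standard error (bars) of each of the 31 genes for knockout against control, knockout against naive and control against naive, by edgeR's quasi-likelihood test, with filled points for adjusted p under 0.05. The scale differs between panels. Sucla2 has the lowest called value for knockout against control (-1.19), and Pdk2 the lowest in both comparisons with naive cells (-4.72 and -3.64).

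The mitochondrial pyruvate carrier is built of Mpc1 and Mpc2. Mpc1 had 107 and 86.5 CPM in the knockout libraries, 90.5 to 115 in controls (median 109) and 47.8 to 63.5 in naive libraries (median 56.5). All naive libraries lay below all stimulated ones, and control exceeded naive (log2 fold change 0.92, SE 0.06, adjusted p = 2.49e-10), as did knockout (log2 fold change 0.81, SE 0.11, adjusted p = 6.95e-05). Mpc2 had 65 and 61 CPM in the knockout libraries, 49.8 to 64.7 in controls (median 54.2) and 50.4 to 59.1 in naive libraries (median 52.1), so that naive and control libraries overlapped. Knockout was above naive in edgeR's test (log2 fold change 0.26, SE 0.09, adjusted p = 0.0281), a call that ended when knockout 1 was left out (adjusted p = 0.246) and also without naive 1, 4, 6 or 7 in turn (adjusted p = 0.058, 0.0696, 0.0659 and 0.0696). It was 0.15 with total counts alone (adjusted p = 0.166), 0.16 among genes averaging 4 log2 CPM or more (adjusted p = 0.137) and 0.05 with the length and GC trend removed (adjusted p = 0.757).

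The pyruvate dehydrogenase complex converts pyruvate to acetyl-CoA with a decarboxylase of Pdha1 and Pdhb, an acetyltransferase core of Dlat, the binding protein Pdhx and the dehydrogenase Dld. Dlat (ENSMUSG00000000168.9, chromosome 9, 50634633 to 50659780, minus strand, GRCm38) was the subunit that fell in the knockout. It had 75.6 and 69.6 CPM in the knockout libraries, 109 to 132 in controls (median 122) and 73.9 to 91.6 in naive libraries (median 79.4). Both knockout libraries lay below every control and within or just below the naive range. Knockout was 1.66-fold below control (log2 fold change -0.73, SE 0.09, adjusted p = 0.000598), control was 1.51-fold above naive (log2 fold change 0.59, SE 0.06, adjusted p = 3.66e-08), and knockout against naive did not pass (log2 fold change -0.12, SE 0.09, adjusted p = 0.341).

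The decarboxylase subunits moved the other way in the knockout. Pdhb had 265 and 233 CPM in the knockout libraries, 199 to 222 in controls (median 207) and 179.6 to 212 in naive libraries (median 187). The knockout values were above all controls (log2 fold change 0.27, SE 0.06, adjusted p = 0.0159), and the controls overlapped the naive libraries while passing the test above them (log2 fold change 0.14, SE 0.04, adjusted p = 0.00257). That rise of control over naive was 0.05 with total counts alone (adjusted p = 0.291) and 0.03 among genes averaging 4 log2 CPM or more (adjusted p = 0.558). Without knockout 1 the difference of knockout from control no longer passed (adjusted p = 0.207). Pdha1 had 239 and 226 CPM in the knockout libraries, 185 to 218 in controls (median 200.2) and 161 to 181 in naive libraries (median 170.4), with knockout above control by a margin just inside the threshold (log2 fold change 0.21, SE 0.06, adjusted p = 0.0448). That call ended without either knockout library (adjusted p = 0.282 without knockout 1 and 0.12 without knockout 2), and without control 2, 4, 5, 6, 7 or 8 in turn it lay between 0.0501 and 0.0709. The call was also lost with no low-count filter (adjusted p = 0.0671) and with limma voom (adjusted p = 0.0873). Exons of Map3k15 on the other strand cover 603 of the 3734 exon bases of Pdha1. Reads there cannot be assigned to one gene, since no strand setting is given for the counting.

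Pdhx and Dld rose with stimulation and did not pass between knockout and control. Pdhx had 54 and 52 CPM in the knockout libraries, 48.4 to 52.8 in controls (median 49.8) and 23.7 to 30.1 in naive libraries (median 28.7), with no overlap between naive and stimulated libraries and a control to naive log2 fold change of 0.84 (adjusted p = 1.42e-10). For Dld, which also serves the 2-oxoglutarate dehydrogenase complex, the levels were 232 and 208 CPM in the knockout libraries, 189 to 225 in controls (median 212) and 122 to 149 in naive libraries (median 138). Its log2 fold change was 0.63 for control against naive (adjusted p = 1.05e-09) and 0.72 for knockout against naive (adjusted p = 1.77e-05).

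Pdk2 and Pdk3 encode kinases that switch the complex off by phosphorylating it. Pdk2 (ENSMUSG00000038967.13, chromosome 11, 95026258 to 95041354, minus strand) had 0.462 and 0.351 CPM in the knockout libraries, 0.272 to 1.87 in controls (median 0.845) and 6.41 to 16.2 in naive libraries (median 11.4). The highest stimulated library lay below the lowest naive one. Control was 12.4-fold below naive (log2 fold change -3.64, SE 0.30, adjusted p = 5.56e-09) and knockout 26.4-fold below (log2 fold change -4.72, SE 0.39, adjusted p = 1.99e-06), on 36 and 32 counts in the knockout libraries and 19 to 170 in controls. Pdk3 ran in the opposite direction, at 126 and 106 CPM in the knockout libraries, 133 to 158 in controls (median 148) and 73.4 to 97.1 in naive libraries (median 86.1). Each control exceeded every naive library (log2 fold change 0.77, SE 0.06, adjusted p = 1.14e-09) and both knockout libraries fell between those groups, below control (log2 fold change -0.33, SE 0.08, adjusted p = 0.0175). The call below control was lost without knockout 2 (adjusted p = 0.285), and the call above naive without knockout 1 (adjusted p = 0.0945). Pc, the pyruvate carboxylase that supplies oxaloacetate, stood at 7.5 and 8.2 CPM in the knockout libraries, 4.58 to 8.26 in controls (median 7.43) and 3.03 to 7.53 in naive libraries (median 4.91). It rose in control over naive (log2 fold change 0.49, SE 0.16, adjusted p = 0.0121) despite overlap, and its call in knockout over naive (log2 fold change 0.68, SE 0.26, adjusted p = 0.0463) was lost without either knockout library (adjusted p = 0.151 and 0.205) and without naive 1, 2, 3, 4, 6 or 7 in turn, where it reached 0.0859. With the length and GC trend removed, neither call of Pc passed (adjusted p = 0.0562 for knockout and 0.0541 for control against naive), and total counts alone or no low-count filter also ended the first (adjusted p = 0.0938 and 0.0654).

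**Figure D3:**
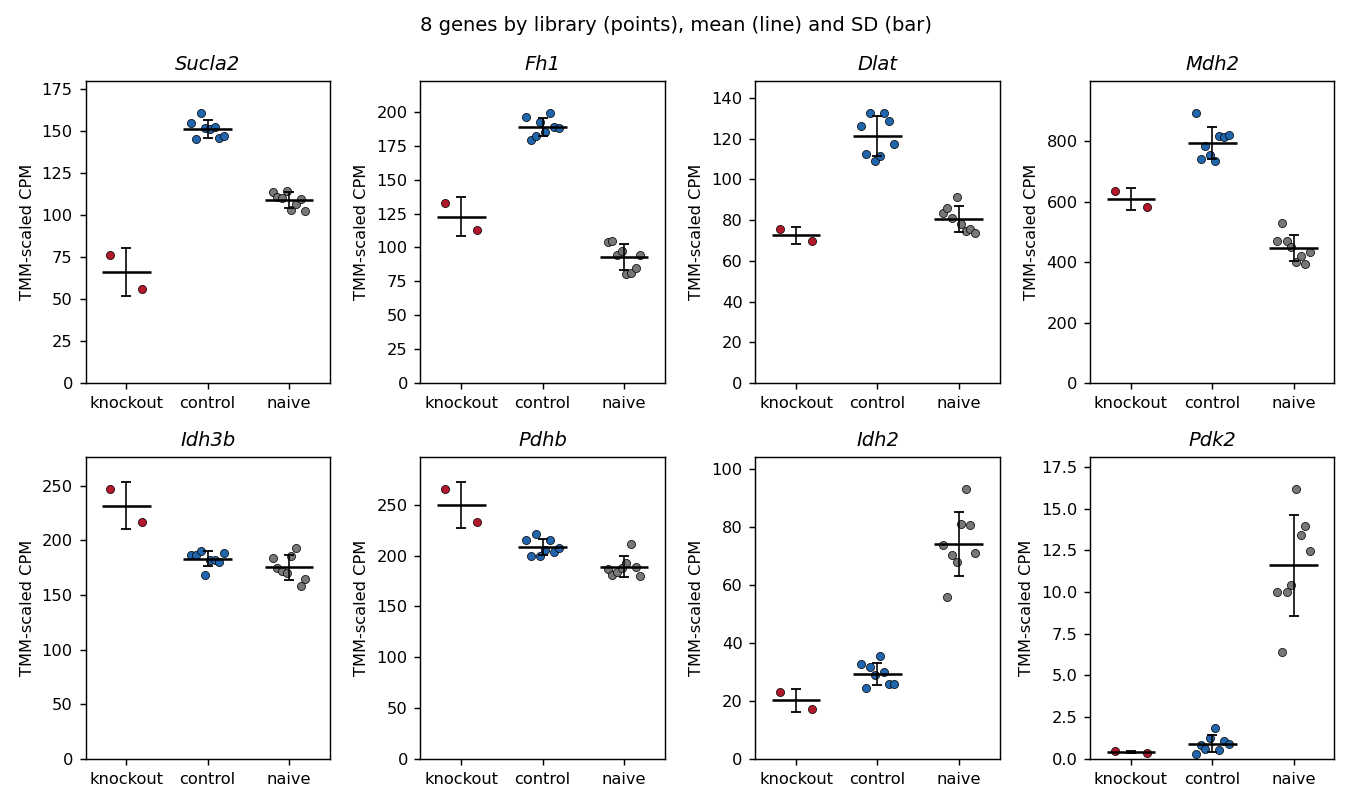
TMM-scaled CPM of 8 genes in each library (points) of the knockout (n = 2), control (n = 8) and naive (n = 8) groups, with the mean (line) and SD (bar). Sucla2, Fh1, Dlat and Mdh2 of both knockout libraries lie below all controls, Idh3b and Pdhb lie above all controls, and Pdk2 and Idh2 are highest in naive libraries.

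Cs, the citrate synthase that opens the cycle, stood at 592 and 574 CPM in the knockout libraries, 511 to 604 in controls (median 549.8) and 301 to 391 in naive libraries (median 319.8). No naive library reached a stimulated one, control was 1.67-fold above naive (log2 fold change 0.74, SE 0.05, adjusted p = 1.35e-09), and knockout against control did not pass (log2 fold change 0.09, SE 0.06, adjusted p = 0.361). Aco1, the cytosolic aconitase that also acts as an iron-sensing RNA-binding protein, was lower after stimulation. It had 26.2 and 28.5 CPM in the knockout libraries, 14.7 to 27.4 in controls (median 23) and 29.5 to 39.9 in naive libraries (median 34.2), with control below naive without overlap (log2 fold change -0.63, SE 0.10, adjusted p = 1.54e-05). The fall in knockout against naive (log2 fold change -0.32, SE 0.12, adjusted p = 0.0455) did not survive leaving out knockout 1, knockout 2 or naive 3, 5 or 7 (adjusted p between 0.0527 and 0.212), nor RLE scaling, no low-count filter, limma voom or a joint fit of all groups (adjusted p = 0.0594, 0.0588, 0.0975 and 0.0842).

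Isocitrate dehydrogenases exist in NADPH-making and NAD-dependent forms. Idh2, the mitochondrial enzyme that makes NADPH (ENSMUSG00000030541.16, chromosome 7, 80094846 to 80115392, minus strand), had 22.9 and 17.4 CPM in the knockout libraries, 24.4 to 35.4 in controls (median 29.3) and 55.7 to 93 in naive libraries (median 72.3). The 3 groups did not overlap, with naive highest and knockout lowest. Control was 2.53-fold below naive (log2 fold change -1.34, SE 0.09, adjusted p = 7.34e-10), and knockout 3.59-fold below naive (log2 fold change -1.84, SE 0.18, adjusted p = 9.99e-06) and 1.45-fold below control (log2 fold change -0.53, SE 0.15, adjusted p = 0.0345). The difference from control was lost without knockout 2 (adjusted p = 0.393) and without control 1, 3 or 6 in turn (adjusted p = 0.0505, 0.0514 and 0.0534), and with limma voom (adjusted p = 0.0764). Idh1, the cytosolic NADPH enzyme, had 15.2 and 14.4 CPM in the knockout libraries, 9.13 to 16.3 in controls (median 13.1) and 11.8 to 17 in naive libraries (median 13.8), and no comparison passed for it.

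The NAD-dependent enzyme of the cycle is assembled from the catalytic subunit Idh3a with Idh3b and Idh3g, and its 3 genes did not move in step. Idh3a had 375 and 330.5 CPM in the knockout libraries, 352 to 417 in controls (median 383) and 181 to 245 in naive libraries (median 199). Control was 1.9-fold above naive with no overlap (log2 fold change 0.93, SE 0.06, adjusted p = 6.39e-10), and knockout lay within or just below the control range (log2 fold change -0.13, SE 0.07, adjusted p = 0.266). Idh3b had 247 and 216 CPM in the knockout libraries, 169 to 190.3 in controls (median 184) and 159 to 193 in naive libraries (median 173), so control and naive overlapped and did not pass (log2 fold change 0.06, SE 0.04, adjusted p = 0.189), while both knockout libraries stood above every other library. Knockout was 1.27-fold above control (log2 fold change 0.34, SE 0.07, adjusted p = 0.00532), a call that ended without knockout 1 (adjusted p = 0.0719). For Idh3g the levels were 291 and 248 CPM in the knockout libraries, 229 to 253 in controls (median 243) and 199 to 209 in naive libraries (median 204), with a log2 fold change of 0.25 for control against naive (adjusted p = 1.62e-06), 0.43 for knockout against naive (adjusted p = 0.000395) and 0.15 for knockout against control (adjusted p = 0.15).

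Ogdh and Dlst form, with Dld, the 2-oxoglutarate dehydrogenase complex, which makes succinyl-CoA. Ogdh had 505 and 543 CPM in the knockout libraries, 464 to 609.9 in controls (median 538) and 374 to 422 in naive libraries (median 397), and Dlst had 180.4 and 183 CPM in the knockout libraries, 149.9 to 180.1 in controls (median 172) and 131 to 160.4 in naive libraries (median 149). Both rose in control over naive, Ogdh by 0.43 on the log2 scale (adjusted p = 1.11e-07) and Dlst by 0.19 (adjusted p = 0.000726). The rise of Dlst was 0.08 among genes averaging 4 log2 CPM or more (adjusted p = 0.103). Neither passed between knockout and control (adjusted p = 0.866 and 0.303).

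The largest called difference between knockout and control among the 31 genes was at succinyl-CoA ligase, which turns succinyl-CoA into succinate. Its catalytic chain Suclg1 pairs with either Sucla2, which makes ATP, or Suclg2, which makes GTP. Sucla2 (ENSMUSG00000022110.13, chromosome 14, 73525319 to 73596142, plus strand) had 76.3 and 55.9 CPM in the knockout libraries, 145 to 161 in controls (median 152) and 103 to 115 in naive libraries (median 110.2). Both knockout libraries lay below every naive library and these below every control. Knockout was 2.28-fold below control (log2 fold change -1.19, SE 0.10, adjusted p = 7.67e-05) and 1.61-fold below naive (log2 fold change -0.69, SE 0.11, adjusted p = 0.000278), and control was 1.39-fold above naive (log2 fold change 0.47, SE 0.03, adjusted p = 1.28e-09). Its partners did not pass in the same comparison. Suclg1 had 235 and 194 CPM in the knockout libraries, 176 to 227 in controls (median 190.0) and 147 to 176 in naive libraries (median 162), with an edgeR log2 fold change 0.16, SE 0.09, adjusted p = 0.268. For Suclg2 the levels were 90.2 and 79 CPM in the knockout libraries, 73 to 95.5 in controls (median 78.5) and 57 to 67.5 in naive libraries (median 61.6), with an edgeR log2 fold change 0.07, SE 0.11, adjusted p = 0.718. Control exceeded naive for both, by 0.25 for Suclg1 (adjusted p = 0.00021) and 0.40 for Suclg2 (adjusted p = 8.76e-06) on the log2 scale.

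Fh1, the fumarase that hydrates fumarate to malate (ENSMUSG00000026526.14, chromosome 1, 175600374 to 175625635, minus strand), had 133 and 113 CPM in the knockout libraries, 179 to 199 in controls (median 188) and 80.8 to 105 in naive libraries (median 94.7). The knockout libraries lay between the other groups and overlapped neither. Knockout was 1.53-fold below control (log2 fold change -0.61, SE 0.07, adjusted p = 0.00049), control was 2.03-fold above naive (log2 fold change 1.02, SE 0.06, adjusted p = 8.46e-11), and the rise of knockout over naive (log2 fold change 0.44, SE 0.11, adjusted p = 0.00747) was lost without knockout 1 (adjusted p = 0.162). Mdh2, which returns malate to oxaloacetate, had 635 and 583 CPM in the knockout libraries, 734 to 892 in controls (median 798) and 395 to 529 in naive libraries (median 443). It held the same order, with knockout 1.3-fold below control (log2 fold change -0.38, SE 0.08, adjusted p = 0.00749) and control 1.78-fold above naive (log2 fold change 0.83, SE 0.06, adjusted p = 1.88e-09). Without knockout 2 the difference from control no longer passed (adjusted p = 0.131).

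Mdh1 and Got1 in the cytosol, Mdh2 and Got2 in the mitochondrion and the 2-oxoglutarate carrier Slc25a11 belong to the malate-aspartate shuttle. Got2, the mitochondrial aspartate aminotransferase, had 402 and 354 CPM in the knockout libraries, 388 to 458 in controls (median 412) and 201 to 269 in naive libraries (median 227), with no overlap between stimulated and naive libraries. Control was 1.82-fold above naive (log2 fold change 0.86, SE 0.06, adjusted p = 1.09e-09) and knockout 1.69-fold (log2 fold change 0.76, SE 0.11, adjusted p = 0.00012). Got1 had 86 and 80.6 CPM in the knockout libraries, 83.7 to 100 in controls (median 89.7) and 48.4 to 64.4 in naive libraries (median 57.5) and rose in control by 0.67 on the log2 scale (adjusted p = 6.79e-08). Mdh1 had 532 and 444 CPM in the knockout libraries, 418 to 495 in controls (median 453) and 372 to 404 in naive libraries (median 385), with a control to naive log2 fold change of 0.22 (adjusted p = 4.17e-05), and its call in knockout over naive (log2 fold change 0.37, SE 0.08, adjusted p = 0.00165) was lost without knockout 1 (adjusted p = 0.073). Slc25a11 had 161 and 142 CPM in the knockout libraries, 160.4 to 182 in controls (median 173) and 155 to 183 in naive libraries (median 166), and it passed in no comparison, its adjusted p for knockout against control being 0.127. Apart from Mdh2, none of these genes passed between knockout and control. The shuttle also uses the aspartate-glutamate carriers Slc25a13 and Slc25a12, both among the further pathway genes below. Slc25a13 fell in the knockout. Slc25a12 had 103 and 107 CPM in the knockout libraries, 93.1 to 109.7 in controls (median 98.4) and 90.3 to 115.7 in naive libraries (median 104). Both knockout values of Slc25a12 thus lay inside the control range and the naive range.

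Slc25a1, the carrier that exports citrate to the cytosol (ENSMUSG00000003528.15, chromosome 16, 17925223 to 17928219, minus strand), had 25.3 and 23.5 CPM in the knockout libraries, 28 to 43.9 in controls (median 36.5) and 29 to 34.7 in naive libraries (median 31.9). Both knockout libraries were below every other library. Knockout was 1.5-fold below control (log2 fold change -0.58, SE 0.15, adjusted p = 0.0226), which was lost without either knockout library (adjusted p = 0.0666 without knockout 1 and 0.204 without knockout 2). Knockout was also below naive (log2 fold change -0.35, SE 0.10, adjusted p = 0.0113), a call lost without knockout 2 (adjusted p = 0.12), and the small rise of control over naive (log2 fold change 0.20, SE 0.08, adjusted p = 0.0318) was lost without naive 5 (adjusted p = 0.0549). That rise also shrank to 0.11 with total counts alone (adjusted p = 0.244), to 0.09 among genes averaging 4 log2 CPM or more (adjusted p = 0.322) and to 0.04 with the length and GC trend removed (adjusted p = 0.653). With limma voom the difference of knockout from control did not pass (adjusted p = 0.0732). Me2, the mitochondrial malic enzyme that turns malate to pyruvate, had 427 and 381 CPM in the knockout libraries, 343 to 424 in controls (median 360.3) and 284 to 336 in naive libraries (median 311), and rose by 0.24 on the log2 scale in control over naive (adjusted p = 0.000162). Glud1, the dehydrogenase that feeds glutamate into the cycle as 2-oxoglutarate, varied widely within groups. It had 99.3 and 111 CPM in the knockout libraries, 63.8 to 115 in controls (median 84.1) and 50.6 to 117 in naive libraries (median 76.7), and no comparison passed.

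Per-length levels allow partners of a complex to be compared within a library, and 16 such ratios were computed, given here as descriptions with no test. The ratio of Sucla2 to Suclg2 TPM was 1.3 and 1.08 in the knockout libraries, against 2.48 to 3.16 in controls and 2.33 to 3.03 in naive libraries. The RNA of the ATP-forming chain exceeded that of the GTP-forming chain by a smaller factor in both knockout libraries than in any other library. Dlat to Pdhx was 0.870 and 0.840 in the knockout libraries, 1.38 to 1.70 in controls and 1.58 to 2.04 in naive libraries, again with no overlap of the knockout. Idh3a to Idh3b was 0.979 and 0.994 in the knockout libraries, 1.21 to 1.45 in controls and 0.628 to 0.910 in naive libraries, so the 3 groups were apart. Idh2 to Idh3a was 0.0888 and 0.0750 in the knockout libraries, 0.0955 to 0.134 in controls and 0.337 to 0.736 in naive libraries, so the RNA of Idh2 was below that of Idh3a in every library. Mdh2 to Mdh1 was 1.76 and 1.92 in the knockout libraries, 2.38 to 2.85 in controls and 1.5 to 1.97 in naive libraries. Ratios of Pdha1 to Pdhb, Suclg2 to Suclg1, Ogdh to Dlst and Got2 to Got1 overlapped across all 3 groups.

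**Figure D4:**
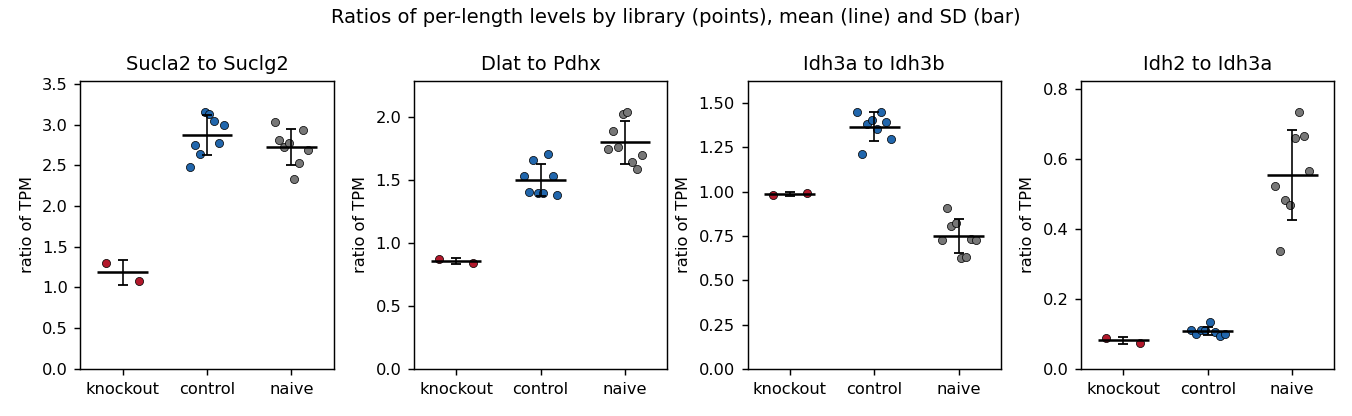
Ratio of per-length levels (TPM) within each library (points), with mean (line) and SD (bar), for the knockout (n = 2), control (n = 8) and naive (n = 8) groups. Sucla2 to Suclg2 and Dlat to Pdhx are lower in both knockout libraries than in all others, Idh3a to Idh3b differs among the 3 groups, and Idh2 to Idh3a is highest in naive libraries.

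The transcript table allowed the make-up of each gene's RNA to be compared. In 23 of the 31 genes a single annotated transcript held over 90% of the counts in every library, and the exceptions were Dlst, Idh1, Idh3a, Idh3g, Mpc1, Ogdh, Pc and Pdhb. Transcript usage differed between control and naive for 7 of the 25 genes with a test (Dld, Fh1, Idh2, Idh3g, Me2, Pdhb and Suclg1), against 10.4% of the 8581 genes tested (edgeR's diffSpliceDGE with a Simes test per gene). Among their transcripts and those of the other members, 12 of 90 passed, all lower in control relative to their gene, and 10 of the 12 are annotated as retained introns, that is, transcripts that keep an intron that the main transcript splices out. Over all 34029 transcripts tested 3.65% passed, of which 82.1% were lower in control and 46.2% were retained introns, so both features were common among called transcripts of any gene. Between knockout and control no gene of 27 passed, against 1.90% of the 9653 genes tested. There 1 member (Sucla2) had an unadjusted p under 0.05, with an adjusted p of 0.0623, and the likelihood-ratio version of the test also gave 0 calls. At Sucla2 the transcript Sucla2-201 held 0 counts in both knockout libraries, 0 to 415 counts in controls and 0 to 379 counts in naive libraries, with 0 counts in 2 controls and 3 naive libraries. Sucla2-203 held 99.4 and 99.6% in the knockout libraries, 96.8 to 99.9% in controls and 95.2 to 99.8% in naive libraries.

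Idh3g-209, the retained-intron transcript with the highest share of its gene, made up 8.32 and 6.66% of Idh3g counts in the knockout libraries, 7.34 to 12% in controls (median 9.31) and 16.5 to 28.3% in naive libraries (median 21). The naive libraries lay above all others, and the change relative to the gene in control against naive was -0.87 on the log2 scale. In counts, Idh3g-209 held 1884 and 1504 in the knockout libraries, 1356 to 2681 in controls and 2921 to 4727 in naive libraries. Idh3g-201, the main transcript, held 20257 and 20459 counts in the knockout libraries, 14701 to 19423 in controls and 10076 to 14062 in naive libraries. Against Idh3g-201, Idh3g-209 keeps introns on the minus strand of chromosome X, among them chrX:73782310-73782674 (365 bases) and chrX:73782104-73782297 (194 bases), which flank an exon of 12 bases. The shorter of these is shown, from the GENCODE M21 transcript sequence of build GRCm38, because it belongs to the RNA whose share of the gene differed. The GT and AG splice dinucleotides at its ends are in capitals.
Idh3g-209 intron of 194 bases: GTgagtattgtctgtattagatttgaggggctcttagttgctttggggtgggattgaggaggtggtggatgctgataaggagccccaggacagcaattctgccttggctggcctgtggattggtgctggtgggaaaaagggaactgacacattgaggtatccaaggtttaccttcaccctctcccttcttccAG
Both introns begin with GT and end with AG.

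Pdhb followed the same pattern over several transcripts. Its main transcript, Pdhb-201, held 96.7 and 95.5% of Pdhb counts in the knockout libraries, 94.3 to 97.5% in controls and 82.8 to 90.2% in naive libraries, with no overlap between naive and stimulated libraries. The retained-intron transcript Pdhb-206 held 1.84 and 2.40% in the knockout libraries, 1.5 to 2.96% in controls and 6.02 to 9.62% in naive libraries. Over all 31 genes, transcripts annotated as retained introns took 1.02 to 1.07% of counts in the knockout libraries, 0.753 to 1.22% in controls and 2.46 to 3.49% in naive libraries. Over all genes of the table the same share was 3.65 to 3.66% in the knockout libraries, 3.10 to 3.82% in controls and 5.22 to 6.16% in naive libraries, so the naive libraries were highest on both counts.

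**Figure D5:**
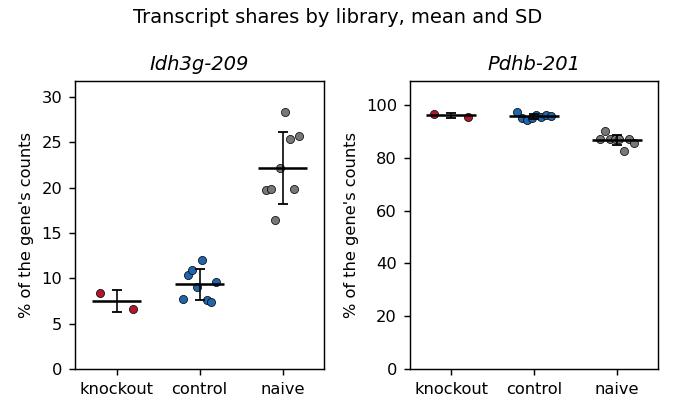
Share of the gene's counts held by the retained-intron transcript Idh3g-209 and by the main transcript Pdhb-201 in each library (points), with mean (line) and SD (bar), for the knockout (n = 2), control (n = 8) and naive (n = 8) groups. The naive libraries lie above all others for Idh3g-209 (16.5 to 28.3%) and below all others for Pdhb-201 (82.8 to 90.2%).

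The 31 genes lie on 17 chromosomes, with a median exon length of 3861 bases against 3367 over the genes tested. RefSeq promoter windows on GRCm38.p6 (250 bases before to 50 after a start site) were matched for 29 of the 31 genes, 38 windows in all, and were searched on both strands for 3 motifs. The E-box CACGTG, a palindrome bound by MYC and related factors, was found in 6 of the 38 windows, belonging to 4 genes (Ogdh with 3 overlapping or nearby windows, Pc, Pdk2 and Slc25a1), against 7.15% of all 32851 windows. The core site of NRF1 was found in 2 of the 38 windows (Dld and Sucla2), against 4.60% of all windows, and TCAAGGTCA, the site of the oestrogen-related receptors, in 0, against 0.423%. These matches are letters in a window and not shown to be bound. Slc25a1 was called higher in control than naive and lower in knockout, and the E-box genes Ogdh and Pc were called higher than naive in both stimulated groups. Whether the E-box bears on these levels was not tested. The 250 bases before the start site are given for the 2 E-box genes with a call of lower, from RefSeq with the E-box in capitals. These are Pdk2, lower in stimulated cells (chr11:95041372-95041621, minus strand, E-box from base 126 before the start), and Slc25a1, lower in knockout cells (chr16:17928220-17928469, minus strand, E-box from base 239 before the start).
Pdk2 promoter: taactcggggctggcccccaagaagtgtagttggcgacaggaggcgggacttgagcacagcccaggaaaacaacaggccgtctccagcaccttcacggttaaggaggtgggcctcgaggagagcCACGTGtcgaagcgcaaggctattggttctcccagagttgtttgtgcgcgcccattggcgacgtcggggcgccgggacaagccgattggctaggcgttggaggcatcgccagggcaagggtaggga
Slc25a1 promoter: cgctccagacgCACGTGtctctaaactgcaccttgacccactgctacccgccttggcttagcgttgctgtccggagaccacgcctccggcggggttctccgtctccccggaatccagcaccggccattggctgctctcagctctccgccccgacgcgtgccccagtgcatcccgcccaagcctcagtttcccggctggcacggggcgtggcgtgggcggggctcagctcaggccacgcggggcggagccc
Each of these stretches holds 1 E-box.

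Further genes of the same pathways, a list of 46, matched 47 identifiers because Nnt is listed under 2, whose reads cannot be assigned to one or the other with certainty. Of 42 identifiers tested between knockout and control, 4 rose (Gpt2, Pck2, Pdp1 and Pcca) and 6 fell (among them Gls2, Slc16a3, Slc25a13 and Glul), against the 7.62% higher and 7.24% lower over all genes, and the median log2 fold change was -0.06. Gpt2, the mitochondrial alanine aminotransferase, had 8.01 and 11.4 CPM in the knockout libraries, 0.697 to 3.39 in controls (median 1.53) and 0.198 to 2.65 in naive libraries (median 1.24), with both knockout libraries above all others (log2 fold change 2.54, SE 0.38, adjusted p = 0.00158). Pck2, the mitochondrial enzyme that makes phosphoenolpyruvate from oxaloacetate, had 46 and 51.8 CPM in the knockout libraries, 8.43 to 11.3 in controls (median 9.9) and 8.57 to 12.8 in naive libraries (median 12.2), again without overlap (log2 fold change 2.32, SE 0.12, adjusted p = 2.52e-06). Pdp1, the phosphatase that switches pyruvate dehydrogenase on, had 16.4 and 18.1 CPM in the knockout libraries, 10.2 to 14.2 in controls (median 11.4) and 11.8 to 18.8 in naive libraries (median 16) (log2 fold change 0.58, SE 0.13, adjusted p = 0.0103). Gls2, a glutaminase, had 1.3 and 1.24 CPM in the knockout libraries, 2.9 to 6.56 in controls (median 4.26) and 0.198 to 1.61 in naive libraries (median 0.445), with knockout below control (log2 fold change -1.77, SE 0.32, adjusted p = 0.004), and the lactate exporter Slc16a3 had 11.7 and 10.7 CPM in the knockout libraries, 18.8 to 41 in controls (median 25.5) and 2.78 to 11.9 in naive libraries (median 3.87) (log2 fold change -1.31, SE 0.29, adjusted p = 0.0117). Slc25a13, an aspartate-glutamate carrier of the malate-aspartate shuttle, fell by 0.56 on the log2 scale (adjusted p = 0.0087).

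Between control and naive, 22 of the 42 identifiers of that list tested were higher and 9 lower, against 32.5% higher and 39.0% lower over all genes, with a median log2 fold change of 0.37. The largest rises were Gls2 (2.80), Slc16a3 (2.50), Ogdhl (1.99, at most 0.715 CPM in controls) and Slc25a13 (1.55), and the largest falls Pdk1 (-2.42), Slc25a22 (-0.93), Ldhb (-0.88) and Pcca (-0.60), all as log2 fold changes. Pdk1, like Pdk2 a kinase of pyruvate dehydrogenase, had 34.4 and 35.2 CPM in the knockout libraries, 21.7 to 41.6 in controls (median 31.6) and 116 to 219.9 in naive libraries (median 181), so the naive libraries stood above all stimulated ones. Chosen after their values were seen, the 4 succinate dehydrogenase genes all rose in control over naive, by 0.48 for Sdhc, 0.51 for Sdha, 0.59 for Sdhb and 0.81 for Sdhd on the log2 scale. Between knockout and naive, 22 of 44 were higher and 7 lower, against 21.1% higher and 23.6% lower over all genes. Gpt2 (2.94), Pck2 (2.14), Pycr1 (1.81) and 1 identifier of Nnt (1.41) rose most, and Pdk1 (-2.28), Slc25a22 (-1.23) and Gpt (-1.14) were among the falls, as was the other identifier of Nnt, with 0 counts in both knockout libraries and 4.90 to 15.2 CPM in naive libraries. In controls that other identifier had a median of 0 CPM and reached 24.1 CPM in control 3. There the first identifier had its lowest control value, 32.8 CPM. Since reads cannot be assigned between the 2 with certainty, neither call describes Nnt as a whole.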

How the data were processed

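Per the labels' protocols, the RNA of all 18 libraries came from a column kit for small samples, and a low-input polyA kit was used for the libraries. The authors deposited estimated counts per gene and per transcript, written as whole numbers, each gene value being the sum over its transcripts. The tools named, per the submitters' processing notes, are DESeq2 1.30.1 in R 4.0.5, StringTie 2.1.0, SAMtools 1.9 and STAR 2.7.1a, and the builds mm39 and mm10 are named without their role. All 55536 Ensembl identifiers are in GENCODE M21, so coordinates are in GRCm38. The 26248 rows with numeric identifiers (0.0513 to 0.132% of counts) name no gene and were left out.

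From the deposited estimated counts, each pair of groups was filtered with filterByExpr (minimum count 10), scaled by TMM and tested with edgeR 4.0.16 (robust quasi-likelihood, prior count 2) in R 4.3.3, with Benjamini-Hochberg adjustment over all genes tested and a threshold of 0.05. SD gives the spread of libraries, and SE belongs to the fold change. CPM are TMM-scaled over all 18 libraries, and TPM were computed from the transcript counts and annotated lengths. Transcript usage was tested with diffSpliceDGE on the quasi-likelihood fit and a Simes test per gene. The tests were also tried on simulated counts with the same dispersion for every gene, and no result given here rests on these. Named were every one of the 31 genes, in full where called among the 8 largest changes of a comparison or a partner of those in a complex, and up to 4 further pathway genes per direction. The members and lists were chosen with earlier results of these data known. Alternatives were scaling by RLE or by total counts, no filter or one at 4 log2 CPM on average, DESeq2 1.42.0, limma 3.58.1 voom with quality weights, all groups in one fit, the replicate number as a block, removal of each library's trend with exon length and GC content, and leaving out each library. Exons of Mpc1, Pdha1, Got2, Slc25a11, Mdh1 and Idh3b overlap exons of a gene on the other strand by 480, 603, 434, 189, 52 and 5 bases, and strand use in counting is not given in the sources used here. Depth was 68249844 to 93972513 counts per library, and having only 2 knockout libraries limits the precision.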

Additional observations from a re-analysis of the deposited data

Results flagged for a closer look

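In 62 groups of 8 libraries (31 genes in the control and naive groups), 4 had a highest or lowest library set apart from the other 7 by more than Dixon's critical share of the group's range, and chance alone flags about 1 in 20 groups. Aco1 in control 8 was the lowest of its group at 14.7 CPM, with the other controls at 21.4 to 27.4 CPM. Idh3b in control 4 was the lowest at 169 CPM, the other controls lying between 180 and 190 CPM. Suclg1 in control 1 was the highest at 227 CPM, against 176 to 195 CPM in the other controls. Pdhb in naive 6 was the highest at 212 CPM, against 180 to 193 CPM in the other naive libraries. The 2 knockout libraries were too few for such a check.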

How the results depend on the processing

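No called value of the 31 genes reversed its sign under any alternative run. For knockout against control, leaving out each library gave 0 to 3 rises, 3 to 7 falls and 651 to 2858 calls over all genes. Removal of the length and GC trend left 1 rise. For knockout against naive, leaving out each library gave 17 to 23 rises, 3 to 5 falls and 6766 to 8986 calls over all genes, and a mean log2 CPM of at least 4 gave 4885 calls. For control against naive that filter gave 6061 calls over all genes, and the likelihood-ratio fit called transcript usage in 19 members. Leaving out each knockout library gave 0 usage calls in knockout against control. With the replicate number as a block, the control against naive counts stayed at 23 and 3, while knockout against control had 0 rises, 0 falls and 0 calls over all genes, and knockout against naive had 3 rises, 3 falls and 2542 calls. Both block runs with knockout libraries kept only the libraries numbered 1 and 2 of each group. The other controls or naive libraries were left out there, so these runs differ from the main fit in more than the block. The numbers are not stated to pair libraries, and the correlations of same-numbered libraries' deviations from their group means lay between -0.025 and 0.051. With only 2 knockout libraries, their deviations mirror each other, so these correlations cannot decide on a pairing of the knockout. Knockout 2 correlated most with the library of its own number in both comparisons (r = 0.051 with control 2 and 0.025 with naive 2). Whether the block runs show a weaker effect was therefore not settled. Under the block Sucla2, Fh1 and Dlat had log2 fold changes of -1.19, -0.60 and -0.70 with adjusted p of 0.14, 0.142 and 0.142, and these 3 kept their call under every other alternative run. Besides leaving out libraries, single called genes lost their call 7 times in control against naive, 18 in knockout against control and 34 in knockout against naive, of 232, 90 and 241 values. With total counts alone the median over all genes moved to -0.19 for knockout against naive and -0.18 for control against naive, from -0.08 in each.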
